A study of Mus musculus with 48 samples.

Results

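Macrophages sorted from AT3 mammary tumours were compared with neutrophils sorted from AT3 tumours, over all genes, by RNA-seq of total RNA. The members were chosen by their labels: 3 AT3 macrophage libraries and 3 AT3 neutrophil libraries, 6 of the 48 libraries of the series. AT3 is a mouse mammary carcinoma line that came from a mammary tumour of an MMTV-PyMT transgenic mouse. Both AT3 groups are labelled as taken in vivo from C57BL/6 mice, and no treatment, age or animal number is given. Per the labels' protocols, the macrophages were live CD45+ CD11b+ Ly6G- Ly6C- F4/80+ cells, and the neutrophils were live CD45+ CD11b+ Ly6G+ cells with medium to low Ly6C. What is particular to AT3 was asked against macrophages and neutrophils, 3 libraries each, from T11, 2208L and E0771 mammary tumours, sorted by the same gates. T11 and 2208L libraries are labelled BALB/C, so mouse strain and tumour cannot be told apart against them. E0771 libraries are labelled C57BL/6, except macrophage library 1 and neutrophil library 1, which are labelled BALB/C. The labels do not say that the 3 libraries of a group came from separate animals, so the p-values reflect how far these libraries differ, and that may be technical variation.

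Macrophages and neutrophils are the main myeloid cells of many mammary tumours. Macrophages take up and digest debris, make complement C1q, present antigen on MHC class II and depend on the growth factor receptor Csf1r. Neutrophils arrive from blood with preformed granules, carry the receptors Cxcr2 and Csf3r, and are rich in the alarmins S100a8 and S100a9. Both cell types answer interferons with a shared set of antiviral genes.

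Total counts were 3553967 to 6240372 in AT3 macrophage libraries and 1344962 to 3341097 in AT3 neutrophil libraries. One entry, the ribosomal RNA precursor Rn45s, took 66.86 to 76.17% of the counts in macrophages and 52.97 to 70.26% in neutrophils, which left 1177828 to 1486971 and 632490 to 993686 counts outside it. Olfactory and vomeronasal receptor genes, which neither cell type is known to use, summed to 1130 ± 263 CPM (counts scaled to library size) outside Rn45s in macrophages and 10430 ± 3517 CPM in neutrophils (SD, n = 3 each). These receptor counts are taken here as a background, which was higher in the neutrophil libraries. The 11 macrophage markers summed to 9920 to 11500 CPM in macrophages and 1080 to 1860 CPM in neutrophils. The 10 neutrophil markers in the table summed to 283 to 327 CPM in macrophages and 3280 to 11700 CPM in neutrophils, and both labels held. Macrophage markers reached 7.72 to 28.2% of their macrophage level in the neutrophil libraries, with a median of 18.8%. Neutrophil library 1 had the lowest neutrophil marker sum, 3280 CPM, against 11700 CPM in library 2 and 7370 CPM in library 3. Summed T, NK, B, dendritic and mast cell markers stayed at or below 26.3 CPM in macrophages and 98.6 CPM in neutrophils for each list, and haemoglobin genes were at 0 in all 6 libraries. In such bulk samples, fewer cells of a type and less RNA per cell cannot be told apart.

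Of 24054 genes in the table, 20364 were tested with edgeR's quasi-likelihood test, and 3940 of them (19.3%) were higher and 6393 (31.4%) lower in AT3 macrophages than in AT3 neutrophils at an adjusted p below 0.05. The balance of the 2 directions rests on the scaling. With factors computed from genes above the receptor background, called here the expressed-gene scaling, 1204 genes (5.91%) were higher and 11095 (54.5%) lower, and the median of all genes moved by -0.93 on the log2 scale. A gene counts as above background when its mean level over the 24 sorted libraries, per base of exon, reached 10 times the receptor level. Among the 5446 such genes, 3137 (57.6%) were higher and 358 (6.57%) lower under the first scaling, with a median log2 difference of 0.94, against -0.71 over all genes tested. Levels below are normalised CPM per library, differences are macrophage minus neutrophil on the log2 scale with their standard error, and counts of a gene list within AT3 are given under both scalings. List counts between tumours are under the first scaling unless stated. Neutrophil library 2, the one with the highest neutrophil marker sum, moved more values than any other library. Leaving it out changed the difference of 57 of 132 genes examined singly by over 1.5 times. Library 2 also had the highest macrophage marker sum (1860 CPM) and the lowest receptor level (6381 CPM outside Rn45s) of the neutrophil libraries. What set it apart was not tested. Without macrophage library 2, 4048 genes were called lower.

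**Figure D1:**
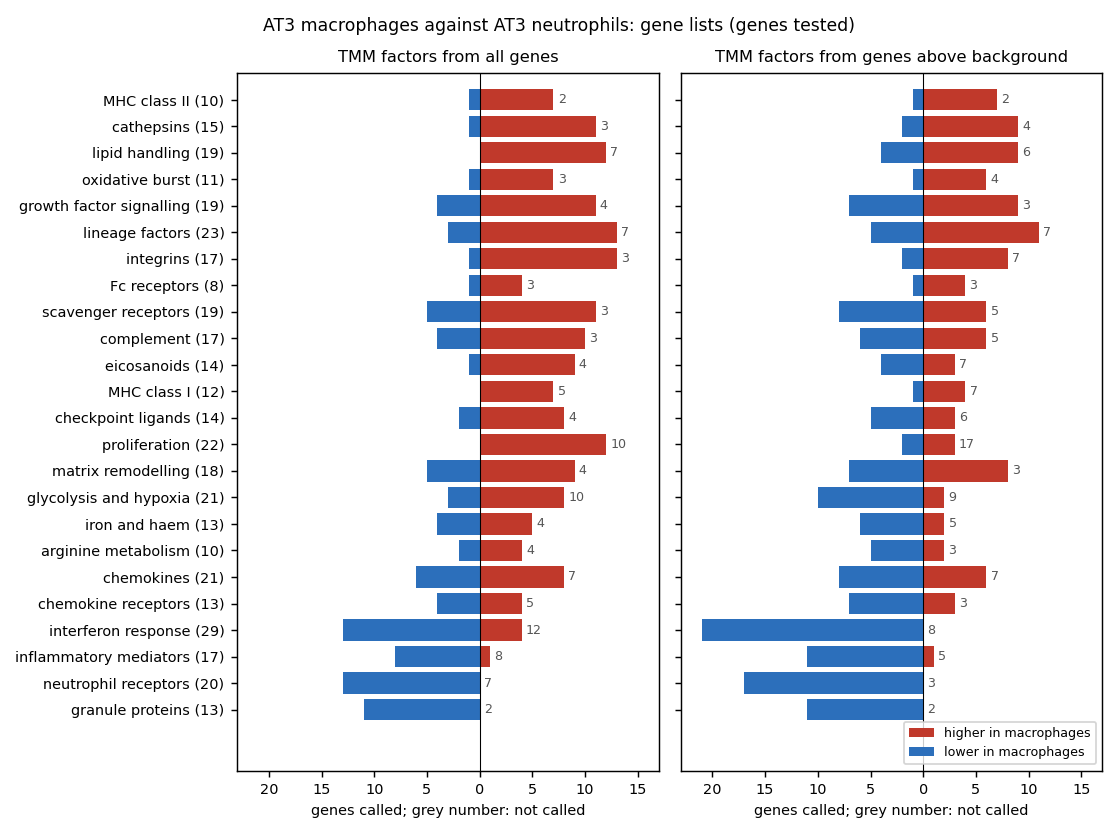
Number of genes of each role list that were higher (right) or lower (left) in AT3 macrophages than in AT3 neutrophils at an adjusted p below 0.05, with genes not called in grey. The left panel uses factors from all genes and the right panel factors from genes above background. Granule genes have 11 of 13 members lower in both panels, while the 22 proliferation genes have 12 higher on the left and 3 higher on the right.

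Among genes with a mean log2 CPM of at least 4 whose libraries did not overlap (21.1% of genes lay apart with macrophages higher and 34.1% with macrophages lower), the 10 largest differences upward were in Cbr2, Fcna, C1qa, Pld3, Cd74, Stab1, Rab3il1, Pld4, Lyz2 and Hfe. Cbr2, a carbonyl reductase, had 398, 306 and 253 CPM in the 3 macrophage libraries and 20.6, 24.8 and 10.6 CPM in the 3 neutrophil libraries. Fcna, a ficolin that binds sugars on microbes, had 108, 122 and 102 CPM in macrophages and 9.24, 11.3 and 1.45 CPM in neutrophils. The 2 groups did not overlap for either gene, with differences of 4.08 ± 0.35 for Cbr2 (adjusted p = 1.4e-12) and 3.88 ± 0.43 for Fcna (adjusted p = 8.37e-10). Lyz2, the lysozyme gene common to myeloid cells, had 13300, 15500 and 12100 CPM in macrophages and 1010, 1750 and 835 CPM in neutrophils, a difference of 3.51 ± 0.49. The endolysosomal nucleases Pld3 and Pld4 differed by 3.68 ± 0.41 and 3.56 ± 0.38, and Rab3il1, an exchange factor of vesicle traffic, by 3.57 ± 0.34. Hfe, the iron regulator related to MHC class I, differed by 3.48 ± 0.39, and by 4.14 without neutrophil library 2.

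Complement genes included the full C1q family. C1qa (chr4:136895917-136898803, mm10) had 1720, 1760 and 1300 CPM in macrophages and 128, 154 and 85.6 CPM in neutrophils, a 12.9-fold difference (log2 3.69 ± 0.44, adjusted p = 7.23e-09). The partner chains moved with it: C1qb by 3.45 ± 0.43 and C1qc by 2.99 ± 0.38. Of 17 complement genes tested, 10 were higher and 4 lower, with a median of 1.23, against 6 and 6 under the expressed-gene scaling. Above background 10 of 12 were higher and 1 lower, beside 57.6% and 6.57% of all such genes. The higher ones included the alternative pathway stabiliser properdin (Cfp, 2.40 ± 0.36) and the anaphylatoxin receptor C3ar1 (2.26 ± 0.34), at 3.16 and 2.97 without neutrophil library 2. The central component C3 was lower, with 40.9, 42.4 and 14.3 CPM in macrophages and 46.6, 141 and 101 CPM in neutrophils, a difference of -1.57 ± 0.36.

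MHC class II genes were higher in AT3 macrophages as a group: 7 of 10 were higher and 1 lower, with a median of 2.59, and the counts were 7 and 1 under the expressed-gene scaling too. None was lower without macrophage library 1 or 3 or neutrophil library 2. Over all genes 19.3% were higher, and 5.91% under the expressed-gene scaling. Above background 7 of 8 class II genes were higher and none lower, beside 57.6% and 6.57% of all such genes. Cd74, the invariant chain that guides class II molecules, had 3730, 8030 and 4170 CPM in macrophages and 188, 820 and 258 CPM in neutrophils. Its difference was 3.65 ± 0.59 (adjusted p = 2.71e-06). The class II chains H2-Aa (3.05 ± 0.50), H2-Eb1 (2.76 ± 0.48) and H2-Ab1 (2.71 ± 0.48) were higher too. In each group library 2 had the highest level of all 4 genes. Leaving out neutrophil library 2 raised the differences to 4.70 for Cd74, 4.05 for H2-Aa, 3.81 for H2-Eb1 and 3.55 for H2-Ab1. Of 12 MHC class I genes, 7 were higher and none lower, against 4 and 1 under the expressed-gene scaling, and 6 of the 10 above background were higher, near the 57.6% of all such genes. Dendritic cell markers, another source of class II, summed to 20.8 to 26.3 CPM in macrophages and 65.7 to 96.2 CPM in neutrophils. Of the 10 only 2 were above background, which was higher in the neutrophil libraries.

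Lysosomal proteases were mostly higher in macrophages under both scalings. Of 15 cathepsin and related genes, 11 were higher and 1 lower, with a median of 2.02, against 9 and 2 under the expressed-gene scaling. Over all genes 19.3% were higher and 31.4% lower, against 5.91% and 54.5%. Above background 11 of 13 were higher and 1 lower, beside 57.6% and 6.57% of all such genes. Ctsc, which activates granule proteases, had 847, 1090 and 868 CPM in macrophages and 69.7, 159 and 57.1 CPM in neutrophils, a difference of 3.29 ± 0.39 (4.01 without neutrophil library 2). Legumain (Lgmn, 3.28 ± 0.39) and cathepsin S (Ctss, 3.09 ± 0.40), which trims the invariant chain, followed. The aspartic protease Ctsd differed by 2.11 ± 0.38 and the cysteine protease Ctsb by 2.16 ± 0.41, at 2.78 and 2.82 without neutrophil library 2.

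Genes of lipid handling were higher in 12 of 19 cases and lower in none, with a median of 1.66, while the expressed-gene scaling gave 9 higher and 4 lower. Of the 18 above background 12 were higher and none lower, beside 57.6% and 6.57% of all such genes. Nothing particular to the list is read from that. Trem2, the lipid-sensing receptor of tissue macrophages, had 175, 252 and 196 CPM in macrophages and 27.7, 37.8 and 17.9 CPM in neutrophils, a difference of 2.89 ± 0.36. Npc2, which moves cholesterol out of lysosomes, differed by 2.61 ± 0.33, and Apoe, the carrier of lipid particles, by 2.41 ± 0.39. Spp1, which encodes the secreted matrix protein osteopontin, had 1120, 480 and 619 CPM in macrophages and 102, 217 and 116 CPM in neutrophils, a difference of 2.35 ± 0.41.

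Of 19 scavenger and alternative activation genes tested, 11 were higher and 5 lower (3 lower without macrophage library 3), with a median of 1.26, and the expressed-gene scaling turned the balance to 6 higher and 8 lower. Of the 13 above background 10 were higher and 2 lower, beside 57.6% and 6.57% of all such genes. Stab1, a receptor that clears modified proteins, had 1620, 1160 and 916 CPM in macrophages and 121, 127 and 58.5 CPM in neutrophils, a difference of 3.59 ± 0.35 (adjusted p = 3.22e-11). The scavenger receptor Msr1 differed by 3.45 ± 0.36, the folate receptor Folr2 by 3.26 ± 0.42 and the mannose receptor Mrc1 by 3.23 ± 0.31. Folr2 reached 4.43 without neutrophil library 1, which held 29.8 CPM of it, against 7.83 and 4.84 CPM in the other 2. Retnla, used as a sign of alternative activation, was at 0.47, 0.799 and 0 CPM in macrophages and 4.2, 4.78 and 1.45 CPM in neutrophils, so it was near 0 in AT3 macrophages. Per base of exon it was at 5.97 times the receptor level in AT3 macrophages and 9.12 times in AT3 neutrophils, under the 10 times that count as above background over the 24 libraries. Arg1, the arginase of the same programme, was high: 1040, 877 and 720 CPM in macrophages and 84.8, 132 and 72 CPM in neutrophils, a difference of 3.19 ± 0.48.

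**Figure D2:**
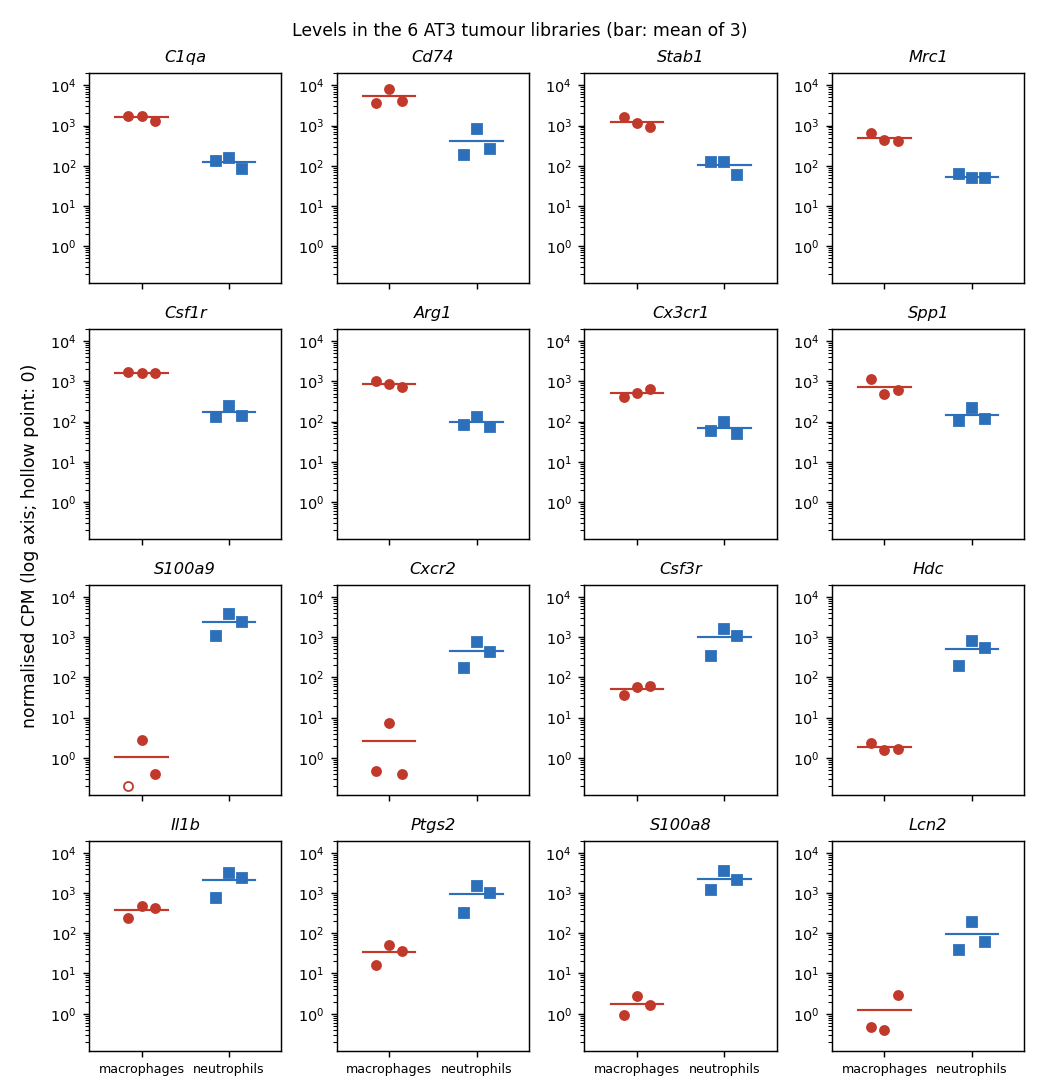
Normalised CPM (log axis) of 16 genes in each AT3 macrophage library (left of each pair) and each AT3 neutrophil library (right), with a bar at the group mean and hollow points for libraries at 0. Macrophage libraries lie above all neutrophil libraries for C1qa, Cd74, Stab1, Mrc1, Csf1r, Arg1, Cx3cr1 and Spp1, and below all of them for the other 8 genes, such as S100a9, Cxcr2 and Lcn2.

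Among growth factor receptors, Csf1r, the receptor for the macrophage growth factor, had 1710, 1630 and 1630 CPM in macrophages and 133, 248 and 139 CPM in neutrophils, a difference of 3.26 ± 0.38. Of 19 genes of growth factors and their receptors, 11 were higher and 4 lower, against 9 and 7 under the expressed-gene scaling. The receptor tyrosine kinases Mertk (2.29 ± 0.32) and Axl (2.30 ± 0.33), which recognise dying cells, were among the higher ones, as was Pdgfb (2.79 ± 0.36), which encodes a growth factor for mesenchymal cells. Among 23 lineage transcription factors, 13 were higher and 3 lower, against 11 and 5 under the expressed-gene scaling, and 1 was lower without macrophage library 1 or 2 or neutrophil library 3. Above background, 11 of 13 growth factor genes were higher and 1 lower, and 11 of 15 lineage factors were higher and none lower, beside 57.6% and 6.57% of all such genes. Irf8, required for monocytic cells, differed by 2.86 ± 0.30 and Maf by 2.24 ± 0.32 (2.86 without neutrophil library 2). Fcgr1, the high-affinity IgG receptor, differed by 2.35 ± 0.31, whereas Fcgr3 (0.76 ± 0.34, adjusted p = 0.0577) and Fcgr4 (0.48 ± 0.39, adjusted p = 0.301) did not pass the test and their libraries overlapped. Without neutrophil library 2 both passed, at 1.41 and 1.36, and Fcgr3 passed without macrophage library 1 too, at 0.97. Emr1, which encodes F4/80, and Itgam, which encodes CD11b, were used for the sort, and their differences of 2.31 ± 0.31 and 2.08 ± 0.35 are no finding. Ptprc, which encodes CD45 and also served the sort, differed by 0.60 ± 0.34 (adjusted p = 0.131), and by 1.14 without neutrophil library 2 (adjusted p = 0.00689).

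Among genes above background, where 57.6% of all genes were higher and 6.57% lower, 9 of 12 matrix genes were higher and 1 lower, 13 of 17 integrin genes higher and 1 lower, and 7 of 9 oxidative burst genes higher and none lower. Nothing particular to these lists is read from that. Fn1, which encodes the matrix protein fibronectin, had 18800, 14200 and 16000 CPM in macrophages and 1180, 2140 and 1620 CPM in neutrophils, a difference of 3.31 ± 0.59. The macrophage elastase Mmp12 differed by 2.99 ± 0.40 (3.93 without neutrophil library 2), the inhibitor Timp2 by 2.40 ± 0.29 and the membrane-bound protease Mmp14 by 2.15 ± 0.33. Of 18 matrix genes, 9 were higher and 5 lower (3 lower without macrophage library 1), against 8 and 7 under the expressed-gene scaling. Fibroblast and endothelial markers summed to 151 to 194 CPM in macrophages and 226 to 303 CPM in neutrophils, and only 1 of the 10 was above background. Integrin genes were higher in 13 of 17 cases and lower in 1, against 8 and 2 under the expressed-gene scaling, led by Itgb5 (3.41 ± 0.30) and by Itgb2 (2.66 ± 0.35, and 3.39 without neutrophil library 2). Of 11 genes of the oxidative burst, 7 were higher and 1 lower, against 6 and 1, with the oxidase core subunit Cybb at 2.59 ± 0.36 (3.33 without neutrophil library 2).

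On the neutrophil side the alarmins stood far apart. S100a9 (chr3:90692632-90695721, mm10) had 0, 2.8 and 0.408 CPM in macrophages and 1060, 3800 and 2450 CPM in neutrophils, a difference of -11.02 ± 0.75 (adjusted p = 2.59e-16). Its partner S100a8 had 0.939, 2.8 and 1.63 CPM in macrophages and 1220, 3440 and 2160 CPM in neutrophils, a difference of -10.24 ± 0.64 (adjusted p = 2.29e-17). The groups lay apart by more than 2 orders of magnitude in every library. Because the macrophage counts are few, the S100a9 value moved with single libraries, to -13.04 without macrophage library 2, -10.41 without macrophage library 1 and -10.42 without neutrophil library 2. Hdc, the enzyme that makes histamine, had 2.35, 1.6 and 1.63 CPM in macrophages and 193, 783 and 551 CPM in neutrophils, a difference of -8.07 ± 0.54 (adjusted p = 2.59e-16). Hdc is also made by mast cells and basophils, whose 10 markers summed to 7.99 to 18.4 CPM in macrophages and 74.3 to 98.6 CPM in neutrophils. Only 1 of the 10 was above background, and the receptor background was 0.118 CPM per kilobase in AT3 macrophages and 0.636 in AT3 neutrophils. The part of mast cells and basophils in the Hdc difference was not tested.

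Receptors and adhesion molecules of neutrophils were lower in macrophages in 13 of 20 cases and higher in none, with a median of -2.28. The expressed-gene scaling gave 17 lower. Over all genes 31.4% were lower, and 54.5% under the expressed-gene scaling. Without neutrophil library 2, 4 of the 20 were higher and 11 lower. Above background 11 of 18 were lower and none higher, beside 6.57% and 57.6% of all such genes. Cxcr2, the receptor for the chemokines that recruit neutrophils, had 0.47, 7.19 and 0.408 CPM in macrophages and 167, 744 and 431 CPM in neutrophils. Its difference was -7.30 ± 0.66, and it ranged to -9.74 without macrophage library 2, to -6.68 without macrophage library 3 and to -6.59 without neutrophil library 2. Csf3r, the receptor for G-CSF, had 36.2, 57.1 and 61.2 CPM in macrophages and 346, 1620 and 1080 CPM in neutrophils, a difference of -4.30 ± 0.45 (-3.66 without neutrophil library 2). The decoy receptor Il1r2 differed by -5.45 ± 0.48 (-4.67 without neutrophil library 2). The 10 largest differences also included Lrg1, a secreted glycoprotein of granules (-5.87 ± 0.55), the interferon-induced membrane protein Ifitm1 (-5.35 ± 0.46), the glucose transporter Slc2a3 (-5.20 ± 0.53) and the hydroxycarboxylic acid receptor Hcar2 (-5.10 ± 0.53). Without neutrophil library 2 they were at -5.16, -4.64, -4.20 and -4.36. In all 7 genes the 3 macrophage libraries lay below the 3 neutrophil libraries.

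Granule genes were lower in macrophages in 11 of 13 cases and higher in none under both scalings, with a median of -2.78. Over all genes 31.4% were lower, and 54.5% under the expressed-gene scaling. Of the 821 olfactory and vomeronasal receptor genes tested, taken as background, 418 were lower, with a median of -2.50. All 8 granule genes above background were lower, beside 6.57% of all such genes. Lcn2, which encodes the iron-binding lipocalin of specific granules, had 0.47, 0.4 and 2.86 CPM in macrophages and 38.2, 192 and 59.5 CPM in neutrophils. Its difference was -6.20 ± 0.58, with -7.54 without macrophage library 3 and -5.08 without neutrophil library 2. The collagenase Mmp8 had 7.51, 12.4 and 3.67 CPM in macrophages and 18.5, 138 and 44 CPM in neutrophils, a difference of -3.08 ± 0.47 (-1.85 without neutrophil library 2). The gelatinase Mmp9 differed by -3.03 ± 0.53 (-2.20 without neutrophil library 2). Elane, the elastase of primary granules, was low in both cell types: it had 1.88, 1.6 and 1.22 CPM in macrophages and 1.68, 3.04 and 1.45 CPM in neutrophils and was not called (-0.39 ± 0.86, adjusted p = 0.71).

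Inflammatory cytokine genes above background leaned to the neutrophils: of 11, 1 was higher in macrophages and 7 were lower, beside 57.6% and 6.57% of all such genes. Of all 17 tested, 1 was higher and 8 were lower, with a median of -1.24, beside 19.3% and 31.4% of all genes. The expressed-gene scaling gave 1 and 11 of the 17, beside 5.91% and 54.5% of all genes. Without macrophage library 1 or neutrophil library 2, 3 were higher and 7 lower. Il1b had 243, 487 and 427 CPM in macrophages and 736, 3080 and 2350 CPM in neutrophils, a difference of -2.41 ± 0.45 (adjusted p = 2.74e-05). Ptgs2, the inducible cyclooxygenase, had 16.4, 50.4 and 35.5 CPM in macrophages and 313, 1500 and 993 CPM in neutrophils, a difference of -4.77 ± 0.44 (-4.13 without neutrophil library 2). Nos2, the inducible nitric oxide synthase, had 6.57, 14.8 and 8.98 CPM in macrophages and 24.8, 142 and 28.5 CPM in neutrophils, and its difference of -2.67 ± 0.49 fell in size to -1.25 without neutrophil library 2. The receptor antagonist Il1rn differed by -1.83 ± 0.38 (-1.02 without neutrophil library 2), with the highest macrophage library above the lowest neutrophil library. Tgfb1 was the member on the macrophage side, at 1.50 ± 0.32 (2.33 without neutrophil library 2). Tnf, with 12.2, 18.4 and 23.7 CPM in macrophages and 8.4, 26.1 and 13.5 CPM in neutrophils, was not called (0.18 ± 0.37, adjusted p = 0.689, and 0.86 without neutrophil library 2).

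Chemokines divided between the cell types. Of 21 tested, 8 were higher and 6 lower in macrophages, against 6 and 8 under the expressed-gene scaling. Above background 8 of 18 were higher and 6 lower, beside 57.6% and 6.57% of all such genes. The 4 largest on the macrophage side were Cxcl16 (2.66 ± 0.36), Ccl7 (2.42 ± 0.37), Cxcl14 (2.36 ± 0.46) and Ccl9 (2.12 ± 0.36). Ccl7 is known to attract monocytes and Cxcl16 to attract T cells that carry Cxcr6. Cxcl16 had 247, 321 and 270 CPM in macrophages and 28.6, 74.8 and 29 CPM in neutrophils, and reached 3.41 without neutrophil library 2, with Ccl9 at 2.77. The neutrophil side held Cxcl3 (-5.06 ± 0.56) and Cxcl2 (-2.84 ± 0.40), which act through Cxcr2, and Ccl4 (-3.68 ± 0.45) and Ccl3 (-3.51 ± 0.38), a pair of inflammatory chemokines. Cxcl2 had 70.4, 120 and 141 CPM in macrophages and 331, 1180 and 869 CPM in neutrophils. Without neutrophil library 2 the differences were -4.35 for Cxcl3, -2.89 for Ccl4 and -2.77 for Ccl3. Among 13 chemokine receptors 4 were higher and 4 lower, against 3 and 7, and the macrophage side held Cx3cr1 (2.92 ± 0.37) and Ccr2 (2.17 ± 0.38). Above background 3 of 8 receptors were higher and 2 lower, beside the same shares of all such genes.

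Metabolic lists depended on the scaling. Above background, 57.6% of all genes were higher and 6.57% lower. There 8 of 20 glycolysis and hypoxia genes were higher and 3 lower, and 10 of 16 proliferation genes higher and none lower. The counts were 2 and 2 of 7 arginine genes and 4 and 2 of 9 iron and haem genes. For eicosanoids they were 8 and 1 of 9, and for checkpoint genes 6 and 2 of 10. Nothing particular to these lists is read from that. Of 21 glycolysis and hypoxia genes, 8 were higher and 3 lower, but 2 were higher and 10 lower under the expressed-gene scaling, with 5 and 4 without neutrophil library 1 and 12 and 1 without library 2. The glycolytic enzymes Aldoa (2.02 ± 0.36) and Gpi1 (1.92 ± 0.37) were higher, and both were at 2.69 without neutrophil library 2. Hif1a, the oxygen-sensing transcription factor, was not called (0.31 ± 0.32, adjusted p = 0.414) except without neutrophil library 2 (0.98), and its target Egln3, at -1.92 ± 0.40, lost the call without neutrophil library 2 (-0.77, adjusted p = 0.0723). Of 22 proliferation genes, 12 were higher and none lower, against 3 and 2 under the expressed-gene scaling, with Mki67 at 399, 236 and 273 CPM in macrophages and 47.9, 62.6 and 57.1 CPM in neutrophils (2.44 ± 0.32). Of 10 arginine genes, 4 were higher and 2 lower, against 2 and 5, and the 2 arginases ran opposite ways: cytosolic Arg1 was higher, and mitochondrial Arg2 was lower, at -3.90 ± 0.46 (-3.06 without neutrophil library 2). Slc7a2, an arginine transporter, had 261, 263 and 264 CPM in macrophages and 31.5, 33.9 and 28.5 CPM in neutrophils, a difference of 3.07 ± 0.31. Of 13 iron and haem genes, 5 were higher and 4 lower, against 2 and 6. The haem-degrading enzyme Hmox1 was at 2.37 ± 0.39 (3.21 without neutrophil library 2) and the iron exporter Slc40a1 at -1.91 ± 0.37 (-1.27 without it). The 14 eicosanoid genes had 9 higher and 1 lower, against 3 and 4, and the lower one was Ptgs2, with 2 lower without macrophage library 2. Among 14 checkpoint and costimulation genes 8 were higher and 2 lower, against 3 and 5, with 5 and 2 without neutrophil library 1 and 9 and 1 without library 2. The ligand of PD-1, Cd274, had 44.6, 80.3 and 41.6 CPM in macrophages and 39.5, 310 and 136 CPM in neutrophils. Its difference of -1.54 ± 0.38 lost the call without neutrophil library 2 (-0.53, adjusted p = 0.2). The costimulatory ligand Cd86 (2.29 ± 0.33, and 3.01 without neutrophil library 2) and the phagocytosis checkpoint Sirpa (2.42 ± 0.36, and 3.10 without it) were on the macrophage side.

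Beyond these cell type differences, a small set of genes set the AT3 tumour apart from the other 3. The macrophage minus neutrophil difference in AT3, less the mean of the same difference in T11, 2208L and E0771, is called the AT3 shift here. It was higher in AT3 for 151 genes (0.742%) and lower for 277 genes (1.36%) of the 20364 tested. For 148 (0.727%) and 255 (1.25%) of these, the AT3 difference also lay outside the range of the other 3 tumours. Most of these genes differed on the macrophage side: of the 148, 128 were called in AT3 macrophages against the other macrophages only, 8 in neutrophils only, 2 in both and 10 in neither, and of the 255 the numbers were 183, 53, 6 and 13. These comparisons use the same libraries as the shift and are no separate support for it. Above background were 109 of the 148 and 113 of the 255. The median shift was 0.00 over genes above background and -0.82 over the 821 olfactory and vomeronasal receptor genes tested. The receptor background per kilobase was 0.118 CPM in macrophages and 0.636 CPM in neutrophils of AT3. It was 0.133 and 0.66 in T11, 0.201 and 0.362 in 2208L, and 0.215 and 0.429 in E0771. The part of background in the shifts was not tested. Over all genes, 1108 (5.44%) were higher and 1001 (4.92%) lower in AT3 macrophages than in the mean of the other macrophages. In neutrophils the counts were 776 (3.81%) and 132 (0.648%). The macrophage counts were 721 and 418 without AT3 macrophage library 2, with 664 lower without library 1 and 541 lower without library 3. The neutrophil counts were 1333 and 213 without AT3 neutrophil library 1 and 236 and 63 without library 2, with 49 lower without library 3. Called against each other tumour taken alone were 17 genes (0.0835%) higher and 26 (0.128%) lower. Leaving out AT3 neutrophil library 2 gave 271 higher genes, leaving out AT3 neutrophil library 3 gave 65 higher and 126 lower, and leaving out AT3 macrophage library 2 gave 77 and 90. Without AT3 macrophage library 1 the counts were 89 and 150, and without macrophage library 3 they were 95 and 149.

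**Figure D3:**
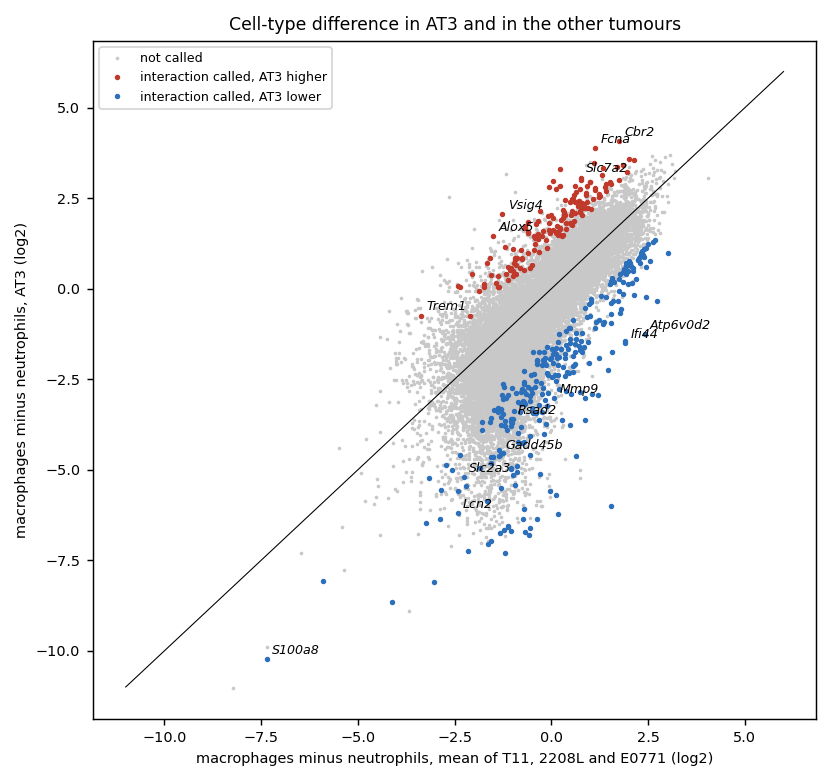
The macrophage minus neutrophil log2 difference of each gene tested in AT3 (vertical axis) against the mean of the same difference in T11, 2208L and E0771 (horizontal axis). Genes called in the AT3 shift are red where AT3 was higher (151) and blue where it was lower (277), and they leave the diagonal along which most genes lie.

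The largest upward shift among the named genes with a mean log2 CPM of at least 4 was in Alox5, the enzyme that starts leukotriene synthesis. Alox5 (chr6:116410077-116461178, mm10) had 114, 116 and 138 CPM in AT3 macrophages and 32.8, 56.1 and 46.4 CPM in AT3 neutrophils. Means in the other tumours were 4.56 ± 0.639 and 20.4 ± 7.83 CPM in T11, 8.74 ± 5.09 and 64.4 ± 15.2 CPM in 2208L, and 25.1 ± 10.4 and 17.9 ± 0.315 CPM in E0771 macrophages and neutrophils (SD, n = 3 each). Alox5 was thus on the macrophage side in AT3 and on the neutrophil side in T11 and 2208L, and the shift was 2.95 ± 0.37 (adjusted p = 1.35e-06). Against E0771 alone it was 0.96 ± 0.45 (adjusted p = 0.243), beside 3.61 ± 0.49 against T11 and 4.29 ± 0.46 against 2208L. Ptgs1, the constitutive cyclooxygenase, also shifted upward, by 1.67 ± 0.39, with 109 ± 9.45 CPM in AT3 macrophages and 29 ± 6.94 CPM in AT3 neutrophils. It was called against T11 (2.70) but not against 2208L (0.82, adjusted p = 0.255), whose macrophages had 126 ± 47.2 CPM, or E0771 (1.50, adjusted p = 0.122), and the call was lost without AT3 neutrophil library 3 (1.60). Of 14 eicosanoid genes, 2 were called higher in the shift and none lower. Those counts were 3 and 1 without AT3 neutrophil library 1, and 1 and none without library 3. In AT3 macrophages 8 of the 14 were higher than in the other macrophages, beside 5.44% of all genes. Above background 6 of 9 were higher there, beside 836 of all 5446 such genes. Of the 11 macrophage markers 8 were higher there too, and nothing particular to the eicosanoid list is read from its count.

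Trem1, a receptor that amplifies inflammatory signals and a marker of neutrophils, was shared by both AT3 cell types. It had 208, 215 and 241 CPM in AT3 macrophages and 173, 536 and 398 CPM in AT3 neutrophils, and the groups overlapped (-0.74 ± 0.38, adjusted p = 0.093, and -1.07 and called without neutrophil library 1). In the other tumours its macrophage means were 4.91 ± 1.97, 30.5 ± 8.8 and 22.6 ± 15.9 CPM in T11, 2208L and E0771, beside neutrophil means of 89.5 ± 50.4, 245 ± 56.3 and 185 ± 28.3 CPM. The shift of 2.64 ± 0.45 (adjusted p = 0.000295) was called against each of the 3, including E0771 (2.27 ± 0.55, adjusted p = 0.019). S100a8 and S100a9, other markers of neutrophils, were at or below 2.8 CPM in every AT3 macrophage library. C5ar2, one of the receptors for C5a, shifted upward too, by 1.58 ± 0.44, but the call was lost in 15 of 24 fits that left out 1 library, among them each AT3 library except neutrophil library 2, with values of 1.32 (without AT3 neutrophil library 1) to 1.71 (without AT3 macrophage library 1). Il1a, a cytokine released by damaged cells, had 14.1, 31.6 and 36.3 CPM in AT3 macrophages and 5.04, 25.7 and 19.3 CPM in AT3 neutrophils. Its shift of 2.38 ± 0.46 was called against each other tumour, and its AT3 difference of 0.72 ± 0.37 (adjusted p = 0.0921) was called without neutrophil library 2 (1.32) or macrophage library 1 (1.14).

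Complement, lectin and scavenger genes of macrophages made up further upward shifts. Vsig4, the complement receptor of tissue-resident macrophages, had 24.4, 34.8 and 32.2 CPM in AT3 macrophages and 10.9, 7.39 and 3.38 CPM in AT3 neutrophils. Macrophages of T11, 2208L and E0771 had 2.15 ± 0.831, 2.42 ± 1.98 and 0.69 ± 0.768 CPM. The shift was 3.33 ± 0.62 (adjusted p = 0.00097), and it was called against each of the 3 tumours. Fcna shifted by 2.75 ± 0.50, also against each tumour, with macrophage means of 111 ± 10.1 CPM in AT3 against 25.5 ± 10.6, 10.1 ± 7.4 and 11.3 ± 1.65 CPM in T11, 2208L and E0771. Stab1 (1.59 ± 0.37), Mrc1 (1.28 ± 0.34) and Cbr2 (2.34 ± 0.40) were called in the shift, but not against E0771 alone, where they were at 1.05, 0.34 and 0.85 with adjusted p-values of 0.203, 0.694 and 0.348. For Mrc1 the E0771 macrophages had 341 ± 66.6 CPM, near the 504 ± 144 CPM of AT3 macrophages, whereas T11 and 2208L had 56.8 ± 8.5 and 113 ± 22.8 CPM. Of 19 scavenger genes, 2 were called higher in the shift and none lower. Against the other macrophages 11 were higher and 1 lower in AT3 (2 lower without 2208L macrophage library 1, and none without AT3 macrophage library 3). Over all genes 5.44% were higher there, and of the 11 macrophage markers 8 were. Those markers summed to 9920 to 11500 CPM in AT3 macrophages, against 3540 to 4620, 7470 to 13200 and 3080 to 5190 CPM in T11, 2208L and E0771 macrophages. Nothing particular to the scavenger list is read from its count. The shift called none without AT3 macrophage library 1 or neutrophil library 3, 4 higher and 1 lower without AT3 neutrophil library 1, 5 higher without library 2, and 1 higher without E0771 neutrophil library 1. The Fc receptor-like gene Fcrls shifted by 1.64 ± 0.38, and was called against T11 (3.08) but not against 2208L (0.94) or E0771 (0.91). Calls were lost without AT3 macrophage library 1 for Stab1 (1.36), Mrc1 (1.04) and Fcrls (1.39), and without AT3 neutrophil library 3 for Stab1 (1.33), Mrc1 (1.23) and Fcrls (1.50). Mrc1 also lost it without AT3 macrophage library 2 (1.40), E0771 neutrophil library 1 (1.24) or T11 macrophage library 1 (1.26).

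Slc7a2, the arginine transporter, had 261, 263 and 264 CPM in AT3 macrophages. Macrophages of T11, 2208L and E0771 had 20 ± 4.63, 71.8 ± 25.5 and 13.3 ± 7.44 CPM. The shift was 2.31 ± 0.35 (adjusted p = 6.05e-05), and 3.12 ± 0.46 against E0771 alone (adjusted p = 7.42e-05). Hfe shifted by 2.37 ± 0.44, with 69.4 ± 14.9 CPM in AT3 macrophages against 13 ± 6.74, 32.9 ± 15.3 and 28.7 ± 11.8 CPM in T11, 2208L and E0771 macrophages, and by 2.07 against E0771 alone (adjusted p = 0.0297). Arg2 shifted the other way, by -2.12 ± 0.53, and lost the call without AT3 neutrophil library 2 (-1.37), macrophage library 1 (-1.83) or macrophage library 3 (-1.94). Cdh1, which encodes the adhesion protein E-cadherin, had 82.7, 53.6 and 51.8 CPM in AT3 macrophages and 13, 23.9 and 15 CPM in AT3 neutrophils, a shift of 2.46 ± 0.39. Cdh1 is also an epithelial gene: the 10 epithelial markers, summed to 63.3 to 91.1 CPM in AT3 macrophages, mostly Cdh1 itself, and to 39.6 to 50.5 CPM in AT3 neutrophils, where Cdh1 was the smaller share, and the cultured AT3 line had 14.3 CPM of Cdh1 outside Rn45s. Of the 10, only the keratin Krt19 was at 0 in all 3 AT3 macrophage libraries, and only Cldn3 in all 3 AT3 neutrophil libraries. The part of tumour cells in the Cdh1 level was not tested. Cyp4f18, which degrades leukotriene B4, and Cass4, an adhesion docking protein, were about level in the 2 AT3 cell types (0.05 ± 0.34 and 0.09 ± 0.29), and under the expressed-gene scaling they were lower in macrophages (-0.80 and -0.83). Their shifts were 2.40 ± 0.42 and 2.49 ± 0.35, with 0.92 (adjusted p = 0.315) and 1.29 (adjusted p = 0.0832) against E0771 alone. The integrin chains Itgb5 (1.57 ± 0.33) and Itgal (1.59 ± 0.42), the circadian factor Bhlhe41 (2.10 ± 0.38) and the collagenase Mmp13 (1.75 ± 0.43) completed the upward shifts named. Itgb5 was called against each other tumour, Bhlhe41 was not called against 2208L (0.91), and Itgal and Mmp13 were called against T11 alone (3.05 and 4.25). For Mmp13 the sign turned against E0771 (-0.35), where macrophages had 129 ± 31.1 CPM beside 49 ± 24.7 CPM in AT3 macrophages. Without AT3 neutrophil library 2 Itgal was at 2.24 and Mmp13 at 2.62. Itgal lost the call without AT3 macrophage libraries 1 (1.63) or 2 (1.44) or neutrophil libraries 1 (1.19) or 3 (1.58), and Mmp13 without macrophage library 2 (1.34) or neutrophil libraries 1 (1.43) or 3 (1.53).

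**Figure D4:**
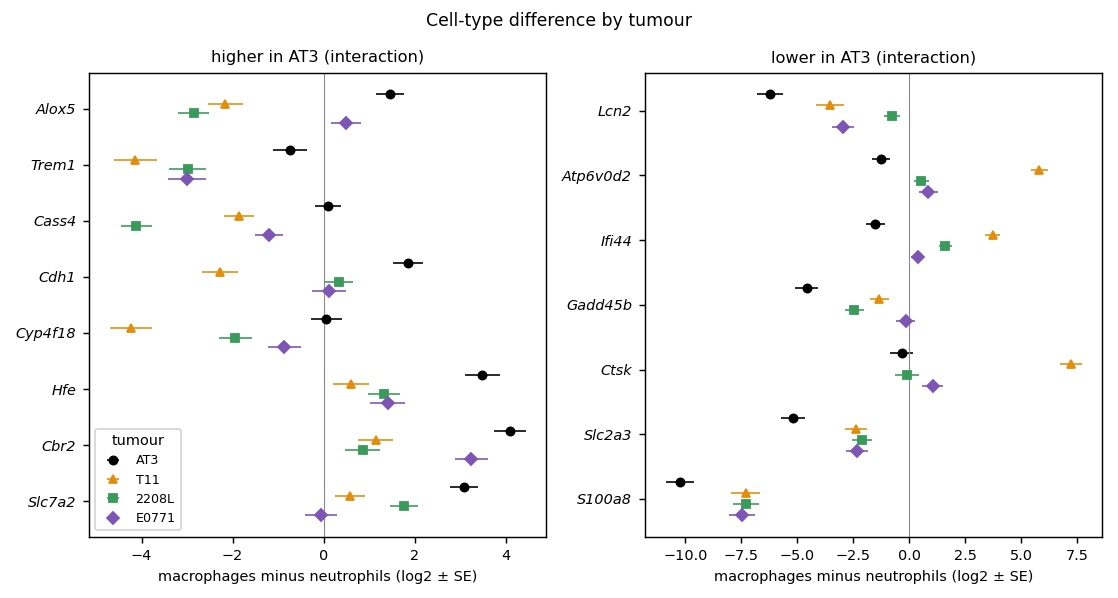
Macrophage minus neutrophil log2 difference, with its standard error, in AT3, T11, 2208L and E0771 tumours for 15 genes with large AT3 shifts, 8 upward (left) and 7 downward (right). For Alox5 the AT3 value of 1.45 lies above E0771 at 0.49, T11 at -2.16 and 2208L at -2.85, and for Ifi44 the AT3 value of -1.51 lies below the other 3.

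Downward shifts included neutrophil genes whose gap to macrophages was widest in AT3. S100a8 had a shift of -2.89 ± 0.75 (adjusted p = 0.0256), from 2270 ± 1110 CPM in AT3 neutrophils against 124 ± 67.1, 358 ± 128 and 577 ± 181 CPM in T11, 2208L and E0771 neutrophils. The call was lost in 8 of 24 fits that left out 1 library: without AT3 macrophage libraries 1, 2 or 3 (-2.60, -3.34 and -2.80), AT3 neutrophil library 2 (-2.43), 2208L macrophage library 2 (-2.15), E0771 macrophage library 3 (-2.68) or T11 macrophage libraries 2 or 3 (-2.79 and -2.83). S100a9 did not pass the test (-2.79 ± 0.90, adjusted p = 0.0933), although it did without AT3 neutrophil library 1 (-3.14), T11 neutrophil library 1 (-3.05) or 2208L macrophage library 1 (-2.94). The glucose transporter Slc2a3 shifted by -2.93 ± 0.59 and was called against each other tumour, with -2.01 without AT3 neutrophil library 2. Gadd45b, a stress-induced gene, had 0.47, 4 and 5.72 CPM in AT3 macrophages and 23.5, 135 and 95.3 CPM in AT3 neutrophils, and shifted by -3.26 ± 0.56. Its E0771 means were 32.3 ± 4.17 CPM in macrophages and 36.1 ± 8.77 CPM in neutrophils, so that E0771 had almost no difference where AT3 had -4.58 ± 0.50 (-3.94 without AT3 neutrophil library 2). Hdc (-2.16 ± 0.61) and Ccl4 (-1.88 ± 0.51) also shifted downward. Hdc lost the call in 17 of the 24 fits that left out 1 library, among them each AT3 library except neutrophil library 1, with values of -2.33 (without AT3 macrophage library 1) to -1.68 (without AT3 neutrophil library 2). Ccl4 lost it in 10, among them each AT3 library except neutrophil library 1, with values of -1.96 (without AT3 macrophage library 3) to -1.18 (without AT3 neutrophil library 2).

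Several large downward shifts came with a high macrophage level in 1 other tumour. Ctsk, the cathepsin of bone resorption, averaged 4.94 ± 1.18 CPM in AT3 macrophages and 2800 ± 772 CPM in T11 macrophages, with 4.48 ± 3.52 and 17.3 ± 6.12 CPM in 2208L and E0771. Its shift of -3.06 ± 0.61 was not called against 2208L (-0.24, adjusted p = 0.877) or E0771 (-1.38, adjusted p = 0.291). Atp6v0d2, a proton pump subunit of osteoclasts and macrophages, had a shift of -3.66 ± 0.46 and averaged 5.61 ± 3.67 CPM in AT3 macrophages against 950 ± 232 CPM in T11 macrophages. It was also called against 2208L (-1.79) and E0771 (-2.11), and it moved to -4.26 without AT3 macrophage library 2. Within AT3 its difference was -1.25 ± 0.41, and the call was lost without macrophage library 1 (-0.80), macrophage library 3 (-1.04) or neutrophil library 2 (-0.76). Mmp9 (-3.11 ± 0.61) had 17.4 ± 8.76 CPM in AT3 macrophages against 3070 ± 1410 CPM in T11 macrophages, and against 2208L alone the sign turned (2.29, adjusted p = 0.0649). Without AT3 neutrophil library 2 its shift was -2.36. Lcn2 (-3.78 ± 0.70) was called against 2208L, whose macrophages had 245 ± 25.1 CPM against 1.24 ± 1.4 CPM in AT3, and against E0771 (-3.24, adjusted p = 0.0265). It moved to -5.22 without AT3 macrophage library 3 and to -2.75 without AT3 neutrophil library 2. Steap4, a metal reductase (-2.73 ± 0.68), and Itgb3, an integrin chain (-2.27 ± 0.50), were called against T11 alone and not against 2208L or E0771. Steap4 lost the call without AT3 macrophage libraries 1 (-2.92), 2 (-2.81) or 3 (-2.44) or AT3 neutrophil library 3 (-2.66), and Itgb3 without AT3 macrophage library 2 (-1.69, against -2.88 without library 3).

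A pair of lipid genes lacked the difference that the other tumours had. Gpnmb, a lysosomal glycoprotein of lipid-laden macrophages, had 16, 15.2 and 10.2 CPM in AT3 macrophages and 24.4, 21.7 and 20.3 CPM in AT3 neutrophils. Macrophages of T11, 2208L and E0771 had 87.8 ± 23, 81.8 ± 46.5 and 76.6 ± 9.63 CPM, and the shift of -2.24 ± 0.39 (adjusted p = 0.000408) was called against each. Lpl, the lipoprotein lipase, had 14.6, 15.2 and 8.98 CPM in AT3 macrophages and 8.4, 4.78 and 9.67 CPM in AT3 neutrophils, which overlapped. Macrophages of T11, 2208L and E0771 had 127 ± 7.62, 42.9 ± 13.6 and 206 ± 20.1 CPM, and the shift was -1.79 ± 0.40 (adjusted p = 0.00823), with -1.01 against 2208L (adjusted p = 0.188). The Lpl shift lost the call without AT3 macrophage library 3 (-1.56) or neutrophil library 3 (-1.57), and its AT3 difference of 0.76 ± 0.36 was called without the same libraries (1.09 and 1.08). Of 19 lipid genes these were the 2 called lower, and none was called higher. Without AT3 neutrophil library 1, 4 were called lower, and 1 without AT3 macrophage library 3 or neutrophil library 3.

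Interferon-induced genes were the list with the most members called in the AT3 shift. All 29 listed genes were tested and above background. Within AT3, 4 were higher and 13 lower in macrophages, with a median of -0.41, against 0 and 21 under the expressed-gene scaling. The number higher was 2 without neutrophil library 1 and 6 without library 2. In the AT3 shift 12 of the 29 were lower and none higher, with a median of -1.23, against -0.26 over all genes tested, and the expressed-gene scaling gave 13 lower and none higher (1.67% and 0.786% of all genes). In AT3 macrophages against the other macrophages 22 were lower and 1 higher, with a median of -1.69, against -0.16 over all genes tested, and none was higher without AT3 macrophage library 1 or 2 or T11 macrophage library 1 or 2. In AT3 neutrophils against the other neutrophils 3 were lower and 1 higher, with a median of -0.41, against 0.08 over all genes tested. Without AT3 neutrophil library 1 that count was 2 lower and 2 higher, and without library 2 or 3 it was 1 and 1. Under the expressed-gene scaling the neutrophil count was 10 lower and 1 higher (1.17% and 2.75% of all genes). AT3 had the lowest mean of the 4 tumours for 24 of the 29 genes in macrophages and for 7 in neutrophils.

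The tumours did not contribute alike. Against T11 alone 23 of the 29 genes were called lower (6.95% of all genes), with a median of -2.07. Against E0771, the other tumour labelled C57BL/6, 10 were called lower (1.68% of all genes), with a median of -1.31. Against 2208L 2 were called lower (2.42% of all genes), with a median of -0.49, and none was higher against any of the 3 (1.7%, 0.486% and 2.34% of all genes). The 2 called against 2208L were Ifi44 and Rsad2. Leaving out 1 of the 24 libraries at a time gave 8 to 13 genes lower in the shift, and 1 higher without AT3 neutrophil library 2. T and NK cell markers, from cells that can make interferon gamma, summed to 12.2 to 15.1 and 5.2 to 10.6 CPM in AT3 macrophages, against 74.7 to 88.4 and 39.3 to 103 CPM in E0771 macrophages. In T11 macrophages they summed to 11.9 to 21.4 and 6.34 to 18.1 CPM, and in 2208L macrophages to 61.2 to 118 and 21.9 to 25.6 CPM. None of the 9 T cell markers and 2 of the 8 NK cell markers tested were above background. Their part in the interferon difference was not tested.

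Among single genes, Ifi44 had 1.88, 3.6 and 4.08 CPM in AT3 macrophages and 10.1, 8.7 and 9.19 CPM in AT3 neutrophils. Macrophages of T11, 2208L and E0771 had 163 ± 18.6, 99 ± 19.4 and 28.8 ± 9.54 CPM, and the shift was -3.41 ± 0.45 (adjusted p = 2.94e-06). Rsad2, which encodes the antiviral enzyme viperin, had 3.29, 33.6 and 19.2 CPM in AT3 macrophages and 66.3, 351 and 270 CPM in AT3 neutrophils, a shift of -2.58 ± 0.49 (adjusted p = 0.001). Its AT3 difference was -3.60 ± 0.45, with -3.01 without macrophage library 1 and -4.21 without macrophage library 2, and its shift was -3.29 without AT3 macrophage library 2. Its neutrophil level was within the range of the other tumours, 80.3 ± 15.3 to 389 ± 78.3 CPM. Of the oligoadenylate synthetases, which sense foreign RNA, and their relatives, Oasl2 (-2.67 ± 0.42), Oasl1 (-2.09 ± 0.40), Oas3 (-2.06 ± 0.41) and Oas2 (-1.92 ± 0.40) were called in the shift. Oas1a, also on the list, was not called. Oasl2 had 37.6, 49.6 and 21.6 CPM in AT3 macrophages and 68.9, 311 and 260 CPM in AT3 neutrophils, and it was higher in AT3 neutrophils than in the other neutrophils (1.42, adjusted p = 0.000246). The chaperone Rtp4 shifted by -2.76 ± 0.44 (-2.09 without AT3 neutrophil library 2). Ifit3 (-1.99 ± 0.46) and Ifit1 (-1.94 ± 0.44), which bind foreign RNA, the deubiquitinase-like Usp18 (-1.86 ± 0.38), the exonuclease Isg20 (-1.84 ± 0.48) and the GTPase Mx2 (-2.16 ± 0.55) made up the 12. Ifit2 and Mx1, also on the list, were not called in the shift. Mx2 moved to -3.91 without AT3 macrophage library 3. Of the 12, 8 kept the call in every fit that left out 1 library. Ifit1 lost it without AT3 macrophage library 1 (-1.68) or neutrophil library 3 (-1.72), and Ifit3 without macrophage library 3 (-1.67) or neutrophil library 3 (-1.83). Isg20 (-2.44 without AT3 macrophage library 1) lost it without AT3 macrophage libraries 2 (-1.60) or 3 (-1.56) or neutrophil libraries 2 (-1.39) or 3 (-1.71), and Mx2 without macrophage libraries 1 (-1.74) or 2 (-1.67) or neutrophil libraries 1 (-1.84) or 3 (-2.21).

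**Figure D5:**
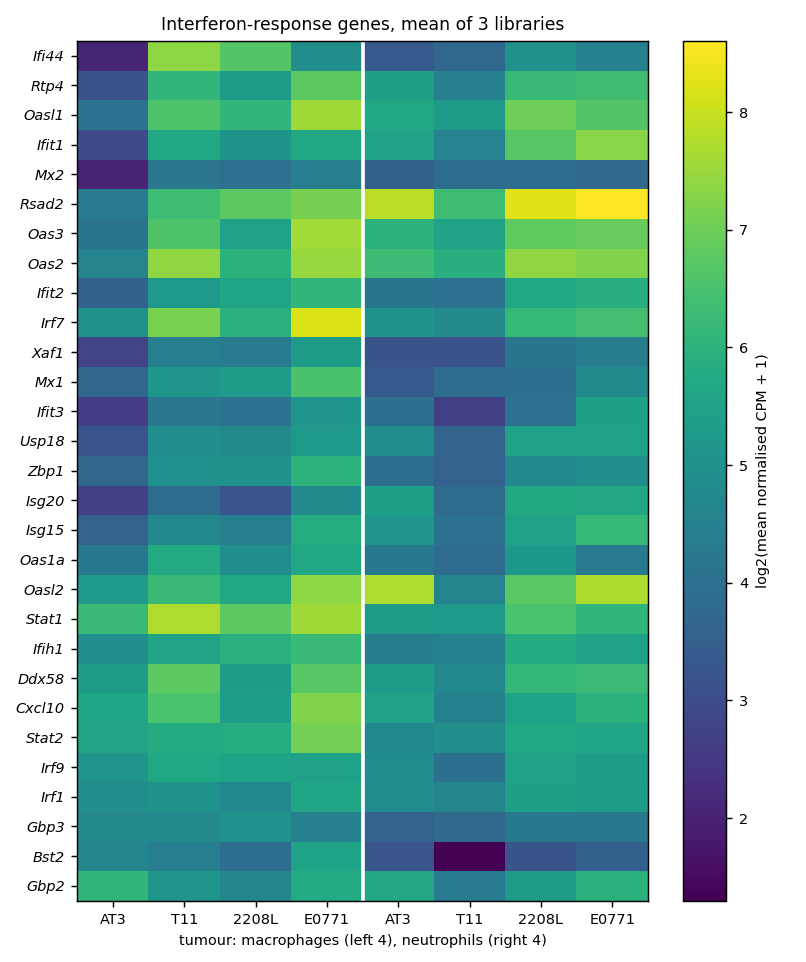
Mean level, as log2(mean CPM + 1), of 29 interferon-induced genes in the 8 groups, macrophages left and neutrophils right, ordered by the difference of AT3 macrophages from the other macrophages. Darker cells are lower, and the AT3 macrophage column is the darkest of the 4 macrophage columns for 24 of the 29 genes, while the AT3 neutrophil column is the darkest neutrophil column for 7.

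Promoters of genes among the 12 are shown because these were the interferon-induced genes called lower in the shift. Their common direction follows from that choice. The interferon-stimulated response element is the site at which the interferon-activated factor ISGF3 is known to bind, and its core, 2 copies of GAAA with any 2 bases between them, was searched on both strands in the 250 bases before each start (RefSeq, GRCm38.p6). It occurred in 936 of 27025 genes with a promoter entry (3.46%) and in 11 of the 22 interferon genes with an entry (50%). Of the 12 genes that shifted downward 8 had an entry, and 4 of these held the core: Ifit1, Ifit3, Oas3 and Rsad2. Ifi44, Isg20, Oasl1 and Oasl2 held none, which says only that these letters are not in this window, and Mx2, Oas2, Rtp4 and Usp18 had no entry. Sequences run 5′ to 3′ toward the start, and capitals mark the match, which reads as 2 copies of TTTC where it lies on the other strand.
Ifit1: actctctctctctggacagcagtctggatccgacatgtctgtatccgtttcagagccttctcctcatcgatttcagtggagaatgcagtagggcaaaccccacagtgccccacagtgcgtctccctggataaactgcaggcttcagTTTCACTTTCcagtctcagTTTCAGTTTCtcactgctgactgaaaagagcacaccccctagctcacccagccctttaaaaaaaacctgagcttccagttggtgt
Ifit3: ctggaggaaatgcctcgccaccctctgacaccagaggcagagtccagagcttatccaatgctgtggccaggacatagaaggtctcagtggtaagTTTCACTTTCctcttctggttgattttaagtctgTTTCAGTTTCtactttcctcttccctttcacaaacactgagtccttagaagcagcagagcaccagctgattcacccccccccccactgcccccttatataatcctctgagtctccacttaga
Oas3: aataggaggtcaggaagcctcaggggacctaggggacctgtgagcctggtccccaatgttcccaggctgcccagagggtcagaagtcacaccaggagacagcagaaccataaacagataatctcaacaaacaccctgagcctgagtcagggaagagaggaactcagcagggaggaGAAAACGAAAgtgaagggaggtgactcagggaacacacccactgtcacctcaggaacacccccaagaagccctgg
Rsad2: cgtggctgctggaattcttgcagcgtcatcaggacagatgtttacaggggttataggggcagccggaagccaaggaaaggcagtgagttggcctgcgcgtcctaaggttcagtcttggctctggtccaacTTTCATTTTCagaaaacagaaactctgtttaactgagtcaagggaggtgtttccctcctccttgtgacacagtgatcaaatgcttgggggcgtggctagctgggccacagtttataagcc
Ifit1 (chr19:34640639-34640888, + strand) held 2 matches, starting 104 and 85 bases before the start, and Ifit3 (chr19:34583279-34583528, + strand) held 2, at 156 and 122 bases. Oas3 (chr5:120777660-120777909, - strand) held 1 match at 75 bases and Rsad2 (chr12:26456453-26456702, - strand) 1 at 120 bases. A match is a description of the sequence and not a measured binding site.

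Some genes were higher in both AT3 sorts than in the same sorts of the other tumours, and the shift does not show them. These genes come from the matrix, chemokine, arginine and neutrophil lists and were chosen after their values were seen. Macrophage markers themselves reached 7.72 to 28.2% of their macrophage level in the AT3 neutrophil libraries. The part of macrophage RNA in the neutrophil values below was not tested. Thbs1, which encodes the matrix protein thrombospondin, had 3410, 2750 and 2720 CPM in AT3 macrophages and 700, 1970 and 1150 CPM in AT3 neutrophils. Its means in T11, 2208L and E0771 were 36 ± 18.1, 75 ± 15.9 and 359 ± 292 CPM in macrophages and 44 ± 14.6, 77.3 ± 17.4 and 400 ± 101 CPM in neutrophils. Thbs1 was higher by 4.90 in AT3 macrophages (adjusted p = 3.84e-17) and by 3.52 in AT3 neutrophils (adjusted p = 6e-12), with a shift of 1.37 ± 0.48 that was not called (adjusted p = 0.129), except without AT3 neutrophil library 2 (1.86) or E0771 macrophage library 3 (1.70). Fn1 was higher by 3.77 in AT3 macrophages and by 2.82 in AT3 neutrophils, Arg1 by 3.36 and 2.70, Ccr2 by 2.36 and 2.04, and Cxcl2 by 2.18 and 2.13. For all 4 the shift was not called, with adjusted p-values of 0.492, 0.597, 0.781 and 0.979. The cultured AT3 line had 523 CPM of Fn1 and 70.4 CPM of Thbs1 outside Rn45s, on a scale that cannot be set beside the levels above. Of 20 neutrophil receptor genes, 12 were higher in AT3 neutrophils than in the other neutrophils (3.81% of all genes). In AT3 macrophages 9 of the 20 were higher than in the other macrophages (5.44% of all genes). Of the 10 neutrophil markers tested, 7 were higher in AT3 neutrophils too. They summed to 3280 to 11700 CPM there, against 651 to 1990, 3070 to 4940 and 2040 to 3020 CPM in T11, 2208L and E0771 neutrophils. Nothing particular to the receptor genes is read from their count. MHC class II genes were higher in AT3 macrophages in 7 of 10 cases and in AT3 neutrophils in 5 of 10, beside the same shares of all genes. Of the 11 macrophage markers 8 were higher in AT3 macrophages and 5 in AT3 neutrophils. Nothing particular to the class II list is read from its counts. None of the 10 class II genes was called in the shift, except 1 higher without T11 macrophage library 3. Without AT3 neutrophil library 2 the neutrophil counts were 3 of the 20 receptor genes and none of the 10 class II genes.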

How the data were processed

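RNA of sorted cells was sequenced as total RNA. Per the labels' protocols, cells were sorted into TRIzol LS and libraries followed a published method for total RNA. The deposited values are raw counts per gene, whole numbers with no normalisation. The submitters' processing notes name bcl2fastq 2.17, STAR 2.4.2a and the mm10 build; the counting program and its use of strand are not given in the sources used here, so overlapping and antisense genes cannot be told apart. Of the table's columns, 27 were matched to samples by name and 21 columns of per-sample values were not used. The 24 sorted libraries (8 groups of 3) were fitted together, with the counts as deposited, by the quasi-likelihood test of edgeR 4.0.16 in R 4.3.3. Factors were TMM, low counts were filtered with filterByExpr (minimum count 10, minimum total 15), and p-values were adjusted by the Benjamini-Hochberg method over all genes tested. The 3 cultured AT3 libraries gave levels only. Symbols were matched to GENCODE annotation of mm10 for exon length (22750 by symbol, 916 by synonym, 388 not matched). CPM are counts scaled by the TMM library size, unless stated as outside Rn45s.

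The genes named are the 10 largest called differences each way in AT3 and the 8 largest shifts each way outside the range of the other tumours, with a mean log2 CPM of at least 4, up to 4 called members of each of 24 gene lists, whole families whose members split, and a short list of well-known genes. Of these, 3 genes are not reported here. Further list members were chosen after their values were seen: in AT3, C3, Elane, Tnf, Hif1a, Slc40a1, Fcgr3, Fcgr4, Ctsb and Ctsd; of the comparison with other tumours, Thbs1, Fn1, Arg1, Ccr2 and Cxcl2, and the monocyte genes F13a1, Plac8 and Vcan. The groups compared and the lists were chosen with earlier results of these data known. DESeq2 1.42.0 was an alternative, as were other size factors, filters, gene sets and reference tumours, and leaving out each library.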

Additional observations from a re-analysis of the deposited data

Results flagged for a closer look

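For 48 genes named here the macrophage minus neutrophil difference of AT3, less the mean of that difference in T11, 2208L and E0771, itself passed edgeR's quasi-likelihood test (adjusted p below 0.05), so each stands out as a difference between tumours. The log2 sizes follow by role, positive where AT3 was higher.

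Upward, the genes of lipid mediators and inflammatory sensing were Alox5 (2.95), Ptgs1 (1.67), Cyp4f18 (2.40), Trem1 (2.64), C5ar2 (1.58) and Il1a (2.38). The complement, lectin, scavenger and Fc receptor-like genes were Vsig4 (3.33), Fcna (2.75), Stab1 (1.59), Mrc1 (1.28), Cbr2 (2.34) and Fcrls (1.64). Those of transport and iron were Slc7a2 (2.31) and Hfe (2.37). Those of adhesion, matrix, clotting and transcription were Cdh1 (2.46), Cass4 (2.49), Itgb5 (1.57), Itgal (1.59), Mmp13 (1.75), F13a1 (1.92) and Bhlhe41 (2.10).

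Downward, the interferon-induced genes were Ifi44 (-3.41), Rtp4 (-2.76), Oasl2 (-2.67), Rsad2 (-2.58), Mx2 (-2.16), Oasl1 (-2.09), Oas3 (-2.06), Ifit3 (-1.99), Ifit1 (-1.94), Oas2 (-1.92), Usp18 (-1.86) and Isg20 (-1.84). Neutrophil, granule and chemokine genes were Lcn2 (-3.78), S100a8 (-2.89), Mmp9 (-3.11), Hdc (-2.16), Ccl4 (-1.88) and Plac8 (-3.04). Those of lysosome, lipid, metabolism, adhesion and stress were Atp6v0d2 (-3.66), Ctsk (-3.06), Gpnmb (-2.24), Lpl (-1.79), Arg2 (-2.12), Slc2a3 (-2.93), Steap4 (-2.73), Itgb3 (-2.27) and Gadd45b (-3.26). In Ctsk, Mmp9, Steap4, Itgb3, Itgal, Mmp13, Ptgs1 and Fcrls the call against a single tumour held for T11 alone. No explanation of these differences was tested.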

How the results depend on the processing

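Of 5179 values of single genes under an alternative, 4942 kept their side of the threshold, 52 came to pass it, 179 no longer passed it, and 6 were called under at least 1 setting and changed sign. Among the 4942, 56 values of 26 results changed sign but were called under neither setting. The 6 were Cyp4f18 (-0.80), Cass4 (-0.83) and Vcan (-0.82) within AT3 with factors from genes above background, and in the AT3 shift Mmp13 against E0771 alone (-0.35), Mmp9 against 2208L alone (2.29) and Csf1r against T11 alone (-1.62, against 0.07 over the 3 tumours). Within AT3, factors from genes above background, chosen after seeing the data, gave 1204 genes higher and 11095 lower. Testing only genes above background gave 382 lower, of 5446 tested, and fitting only the AT3 libraries gave 4013 lower, of 13429 tested. In the AT3 shift DESeq2 called 245 genes higher; against 2208L alone 477 were higher and 492 lower, against E0771 alone 99 higher, and against T11 alone 347 higher and 1416 lower. Genes lower in AT3 macrophages than in the others numbered 280 among genes above background, and genes lower in AT3 neutrophils numbered 248 with DESeq2 and 238 with factors from genes above background. With factors from genes above background the shift called 3 eicosanoid and 3 scavenger genes higher and 3 lipid genes lower. Under these factors 6 eicosanoid genes were higher in AT3 macrophages than in the others. In AT3 neutrophils 9 neutrophil receptor genes and 4 class II genes were higher. The cause of the DESeq2 and factor changes was not tested. Leaving out 1 library gave 3109 to 4629 higher and 4048 to 5805 lower within AT3, 65 to 271 higher and 90 to 379 lower in the shift, 721 to 1370 higher and 418 to 1228 lower in macrophages, and 236 to 1333 higher and 49 to 213 lower in neutrophils. Without the 2 E0771 libraries labelled BALB/C the shift had 150 higher and 222 lower genes. Column names share numbers across the cell types, but no label says what a number marks, and the correlations of same-numbered AT3 libraries (0.166, 0.25 and 0.067) did not all pass 0.1; with the number as a replicate block the counts were 3847 and 5296 within AT3 and 173 and 236 in the shift, and in AT3 each library correlated best with its own number. Within AT3 the block gave 3 inflammatory cytokine genes higher and 6 lower, and 14 lineage factors higher and 1 lower. No block could be fitted to comparisons within 1 cell type. Bhlhe41, Cxcr1, Elane and Slc40a1 have no value among genes above background, and Elane none with only the AT3 libraries. Depth outside Rn45s was 1177828 to 1486971 counts in AT3 macrophage libraries and 632490 to 993686 in AT3 neutrophil libraries.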

Other observations

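Monocyte markers, genes of the circulating cells that give rise to many tumour macrophages, summed to 702 to 933 CPM in AT3 macrophages and 274 to 650 CPM in AT3 neutrophils. In macrophages of T11, 2208L and E0771 the sums were 115 to 183, 122 to 198 and 194 to 537 CPM. The 8 genes were not one block: within AT3 2 were higher in macrophages and 5 lower, and against the other macrophages 3 were higher and 2 lower. F13a1, which encodes a subunit of clotting factor XIII, had 453, 161 and 260 CPM in AT3 macrophages and 52.1, 40 and 29.5 CPM in AT3 neutrophils, a difference of 2.84 ± 0.37. Its shift of 1.92 ± 0.42 was called against T11 and 2208L but not against E0771 (0.49, adjusted p = 0.643), whose macrophages had 137 ± 93.5 CPM, and it lost the call without AT3 macrophage library 1 (1.47) or neutrophil library 3 (1.76). Plac8, a gene of classical monocytes, was nearly absent from AT3 macrophages, with 1.41, 1.2 and 0.816 CPM against 5.88, 30.4 and 14 CPM in AT3 neutrophils. E0771 macrophages had 52.6 ± 29.1 CPM of Plac8, and its shift of -3.04 ± 0.71 was called against E0771 alone and lost without AT3 macrophage libraries 2 (-3.08) or 3 (-2.84) or neutrophil library 2 (-2.25). Its AT3 difference was -3.83 ± 0.62, with -2.94 without neutrophil library 2. Vcan, which encodes the matrix proteoglycan versican, had 94.4, 96.3 and 125 CPM in AT3 macrophages and 52.5, 140 and 114 CPM in AT3 neutrophils, which overlapped. It was higher in both AT3 cell types than in the same cells of the other tumours, by 2.13 in macrophages and 1.40 in neutrophils (edgeR adjusted p = 4.92e-09 and 9.44e-05). The part of the monocyte markers in other results was not tested, and Ly6C was itself used for the sort.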
